A study of Mus musculus with 27 samples.

Results

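CAST/EiJ is an inbred strain derived from wild mice of the subspecies Mus musculus castaneus. Hepatocytes carry out most of the liver's metabolic and secretory work, and those of CAST/EiJ were represented by 3 of 27 DNA methylation libraries, chosen by the strain given in their labels. The other 24 libraries came from 8 inbred strains with 3 samples each, namely C57BL/6J, A/J, DBA/2J, 129S1/SvImJ, NZO/HlLtJ, NOD/ShiLtJ, WSB/EiJ and PWK/PhJ. All 27 samples were labelled as hepatocytes of liver from female mice aged 12 weeks, and the labels named no treatment, transgene or deletion. PWK/PhJ and WSB/EiJ are likewise derived from wild mice, and the remaining 6 strains are laboratory strains. Each strain is a single inbred genotype, so that its 3 samples show the spread between samples of that genotype and not the spread within a subspecies. The CAST/EiJ samples carried the replicate numbers 1, 4 and 5.

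Reduced representation bisulfite sequencing reads the CpG-rich part of the genome, after digestion of the DNA at CCGG sites by MspI. In mammals, cytosines followed by guanine carry most DNA methylation. Clusters of CpGs at gene starts are usually unmethylated, while CpGs inside genes and between genes are usually methylated. In females one X chromosome is silenced and carries methylation at many of its CpG clusters, so that levels between the extremes are common on the X.

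The sequences of 3 gene starts at which CAST/EiJ was more methylated are shown first, because each overlaps a 1 kb stretch that separated CAST/EiJ from the 24 other samples. They were taken from RefSeq for GRCm38.p6, run from 250 bases before to 50 bases after the start, and are read 5′ to 3′ on the strand of the gene. Capitals mark a C or G whose CpG position, on that strand or on the other, was listed in all 27 samples. The Ranbp3l start lies on the plus strand at chr15:8967699-8967998, the Tnfsf14 start on the minus strand at chr17:57194132-57194431 and the Arpc1a start on the plus strand at chr5:145083619-145083918.
Ranbp3l: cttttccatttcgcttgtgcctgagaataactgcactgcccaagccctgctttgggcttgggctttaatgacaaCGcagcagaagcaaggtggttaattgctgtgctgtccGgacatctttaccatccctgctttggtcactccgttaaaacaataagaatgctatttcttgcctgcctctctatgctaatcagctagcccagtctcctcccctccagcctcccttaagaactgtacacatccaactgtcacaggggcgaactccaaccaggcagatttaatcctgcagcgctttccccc
Tnfsf14: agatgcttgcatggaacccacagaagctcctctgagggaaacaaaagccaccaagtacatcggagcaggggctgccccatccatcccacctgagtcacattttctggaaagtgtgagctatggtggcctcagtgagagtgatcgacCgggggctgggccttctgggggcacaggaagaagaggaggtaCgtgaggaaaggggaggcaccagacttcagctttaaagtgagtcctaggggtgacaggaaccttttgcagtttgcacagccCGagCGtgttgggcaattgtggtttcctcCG
Arpc1a: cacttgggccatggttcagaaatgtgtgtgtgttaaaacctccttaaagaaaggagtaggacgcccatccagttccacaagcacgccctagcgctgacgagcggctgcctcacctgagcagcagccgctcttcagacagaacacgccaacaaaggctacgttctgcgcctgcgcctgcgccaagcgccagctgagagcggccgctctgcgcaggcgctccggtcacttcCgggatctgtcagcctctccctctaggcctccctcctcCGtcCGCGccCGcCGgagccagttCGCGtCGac
The Ranbp3l sequence held 6 CpGs, of which only those at chr15:8967773-8967774 and chr15:8967810 gave such positions, 3 in all. They lie before the start at chr15:8967949, and the CpGs nearer to it were not among them. The mean of the 3 positions was 75.7, 76.4 and 65.9% in the CAST/EiJ samples against at most 24.2% in any other sample. The Tnfsf14 sequence held 8 such positions, with 69.9, 75.8 and 72.6% in CAST/EiJ against 13.4 to 35.1% elsewhere. The 17 positions in the Arpc1a sequence had 28.4, 21.1 and 20.7% in CAST/EiJ and at most 3.31% in any other sample. At the positions read, the Ranbp3l and Tnfsf14 sequences were thus mostly methylated in CAST/EiJ. The Arpc1a sequence was mostly unmethylated there but above every other sample.

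The CAST/EiJ files listed between 2969433 and 3126017 CpG positions, against 2904787 to 3156965 in the other samples, and 1692453 nuclear positions were listed in all 27. The files give a percentage per position without read counts, so the depth behind a value is unknown. Over 1 kb tiles, means of at least 5 shared positions, the CAST/EiJ samples correlated with each other at r = 0.984 to 0.988 and with samples of other strains at r = 0.956 to 0.966, as a description over tiles from the same libraries. The labelled cell type was checked on 10 windows around the starts of 9 hepatocyte marker genes. In CAST/EiJ their median level was 4.22%, and 8 windows (80%) were under 10%. Over all windows measured the median was 1.02% and 83.0% were under 10%, so that this level does not set hepatocyte markers apart. None of the 7 marker windows tested passed the threshold. Only 3 of 16 listed marker genes of Kupffer and other blood-derived cells could be measured, with a median of 13.8% in CAST/EiJ and 11.8% elsewhere, and none of their 4 windows passed. Of the 5 cholangiocyte windows tested, 3 were higher in CAST/EiJ, namely Cldn4, Krt7 and Epcam, where 11.4% of all windows tested were higher. The Cldn4 window had 74.6, 76.4 and 75.7% against 44.8 to 65.7%, while the Krt7 and Epcam windows overlapped with the others. The median difference was 6.33 points over the 5 cholangiocyte windows tested and 0.447 points over the 7 measured. Of 3 endothelial windows tested 1 was higher (Kdr), and of 5 stellate and fibroblast windows 1 was higher (Pdgfrb). These counts, like that of the cholangiocyte windows, are too small to be set against the 11.4%. The part of other cell types in the results was not tested.

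CAST/EiJ hepatocytes were set apart from all other strains at 72 of 45604 tested tiles, 0.158% of them. A tile was called set apart when all 3 CAST/EiJ samples lay at least 25 percentage points above or below all 24 others and limma's adjusted p (Benjamini-Hochberg, over all tiles) was under 0.05. This distance between the nearest samples is called the gap below. CAST/EiJ was higher in 40 tiles (0.0877%) and lower in 32 (0.0702%). The higher tiles were mostly unmethylated elsewhere, with a median of 14.96% over the other strains and 75.8% in CAST/EiJ. The lower tiles were mostly methylated elsewhere, with a median of 88.5% against 24.5% in CAST/EiJ. In 21 of the 40 higher tiles the CAST/EiJ mean passed 75%, and in 16 of the 32 lower tiles it was under 25%. The tiles just inside the limit had gaps of 25.03, 25.51 and 25.57 points, and those just outside had 24.94, 24.64 and 24.47.

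The same rule set apart 77 tiles (0.169%) in PWK/PhJ, 11 (0.0241%) in WSB/EiJ and 2 to 6 (0.00439 to 0.0132%) in each of the other 6 strains. The difference between these counts was not tested. The CAST/EiJ tiles were scattered: a pair of neighbouring tiles in Fam222a was the only case of adjacent tiles, and no run of 3 was seen. Protein-coding genes held 25 of the higher and 17 of the lower tiles, 0.137% of the 30686 tiles tested inside them, against 0.201% of the 14918 outside.

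Among the higher tiles inside protein-coding genes, the gap was largest in Cdk1, whose kinase drives entry into mitosis. In this tile, chr10:69342001-69343000, the CAST/EiJ samples had 83.5, 81.2 and 75.5%, and the others ranged from 0 to 19.7% with a median of 7.87% (limma, Benjamini-Hochberg adjusted p = 1.33e-08). All 8 of its positions were higher in all 3 CAST/EiJ samples than in any other sample. The tile lies within the span of the gene. Its centre is 10412 bp from the nearest start of any protein-coding gene, with gene ends taken where no start was listed. Whether the tile is exonic or intronic was not analysed here.

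A tile in Dock6, an activator of the small GTPases Rac1 and Cdc42, had 78.3, 72.9 and 82.5% in CAST/EiJ and 3.30 to 20.2% in the others, with a median of 7.28% (chr9:21830001-21831000). A tile in Mapre2, which binds growing microtubule ends, had 91.9, 93.4 and 93.0% in CAST/EiJ (chr18:23820001-23821000). The others had 7.66 to 44.4% there, with a median of 16.4% and the highest value in PWK/PhJ. The rule that named these tiles leaves no overlap, and the limma adjusted p-values (Benjamini-Hochberg) were 3.37e-11 and 2.21e-13. The tile in Tram1, a membrane protein of the protein translocation site of the endoplasmic reticulum, was almost fully methylated in CAST/EiJ, with a gap of 53.8 points to PWK/PhJ as the nearest.

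In Dtx1, an E3 ubiquitin ligase of the Notch pathway, 33 positions were read in the tile chr5:120694001-120695000. The CAST/EiJ samples had 53.7, 64.2 and 59.3%, and the others 6.05 to 15.4% with a median of 8.96% (limma, Benjamini-Hochberg adjusted p = 1.44e-13). At 30 of the 33 positions all CAST/EiJ samples exceeded all others. The difference was thus spread over most of the positions read. Here and in the other named tiles and windows, the positions counted are those whose mean was tested. Such counts describe how a difference was spread and are no separate support for it. Over all 704330 positions tested singly, 0.783% passed the adjusted p without overlap.

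The tile shared by Pla2g2d, a secreted phospholipase A2, and the predicted gene Gm32871 had 55.9, 59.7 and 63.1% in CAST/EiJ and at most 7.72% in any other sample (chr4:138777001-138778000). The gap was 37.2 points in Itgb5, an integrin beta chain, and 33.4 points in Jade1, a subunit of a histone acetyltransferase complex. The remaining tiles named by the rule, in Fam222a, Pced1b and Veph1, had gaps of 35.0, 34.5 and 34.0 points. The Fam222a tile averaged 45.5% ± 0.733 (SD, n = 3) in CAST/EiJ, from 4 positions with means of 93.3 to 100% and others with 6.58 to 31.6%, and only those 4 of its 11 positions were free of overlap with the other strains. In Veph1 CAST/EiJ averaged 48.1% ± 4.78 (SD, n = 3), with means of 21.5 to 75.9% over its 13 positions, all above the other strains. The largest gap of all higher tiles, 65.8 points, lay outside genes, 19692 bp from Ddah1, an enzyme that breaks down methylated arginines. There the CAST/EiJ samples had 93.9, 94.99 and 88.5% and the others 4.70 to 22.7% (chr3:145738001-145739000). A tile in the predicted gene Gm19963 on chromosome 7 came after Cdk1, with a gap of 54.2 points.

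**Figure D1:**
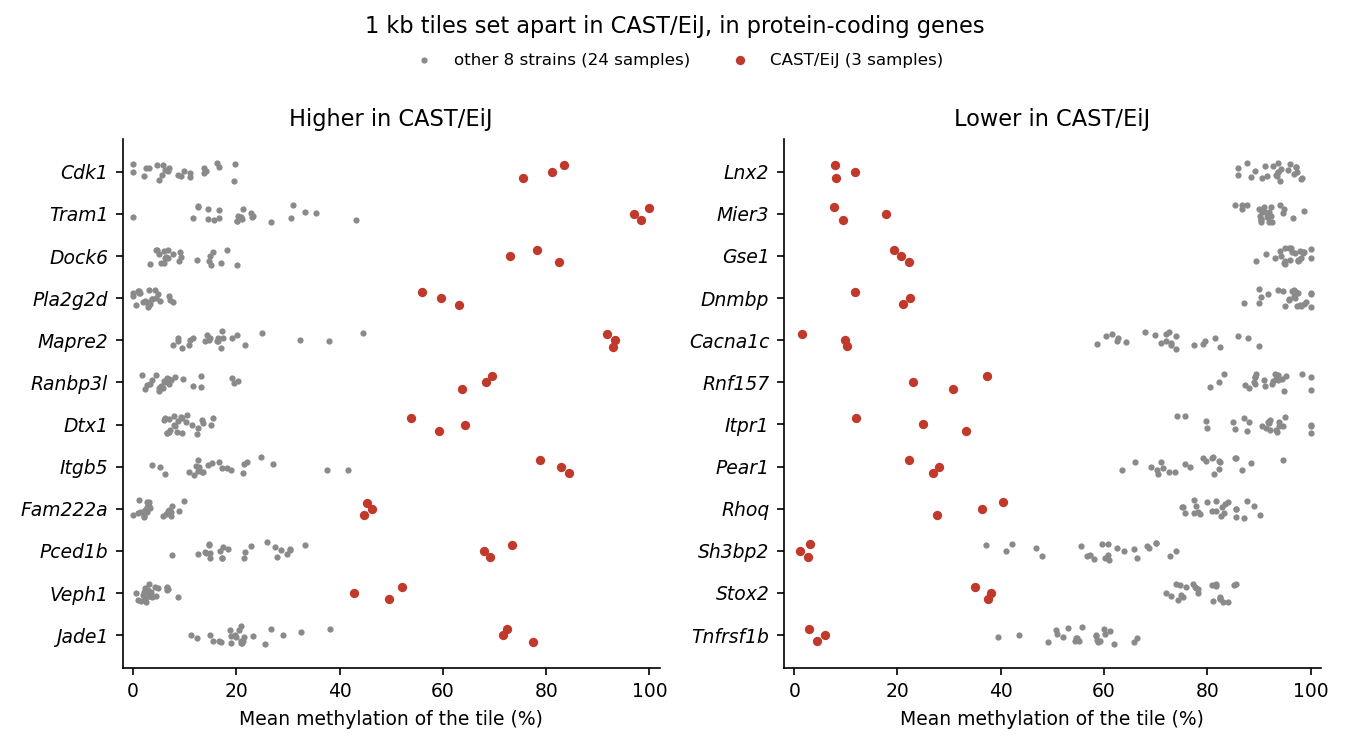
Mean methylation in percent (horizontal axes) of 1 kb tiles in the named protein-coding genes, 12 higher (left) and 12 lower (right) in CAST/EiJ. Each point is a sample, red for the 3 CAST/EiJ samples and grey for the 24 others. The rule that named the tiles leaves no overlap between the groups, and in Cdk1 the red points lie at 75.5 to 83.5% against at most 19.7% for the grey.

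Among the lower tiles, the largest gap was in Lnx2, an E3 ubiquitin ligase of a family that acts on Numb. The tile chr5:147031001-147032000 had 7.82, 11.7 and 8.07% in the CAST/EiJ samples, and 86.0 to 98.3% in the others with a median of 93.6% (limma, Benjamini-Hochberg adjusted p = 4.32e-13). In Mier3, a protein of histone deacetylase complexes, the CAST/EiJ samples had 7.64, 17.8 and 9.42% and the others 85.4 to 98.7% (chr13:111711001-111712000). The tile in Gse1 had 19.3, 20.7 and 22.3% against 89.4 to 100% (chr8:120545001-120546000). At each of the 5, 6 and 8 positions of these tiles all CAST/EiJ samples lay below all others. The CAST/EiJ means per position were 1.39 to 15.3% in Lnx2 and 5.32 to 17.1% in Mier3, but reached 66.8% at the last of the Gse1 positions, the others of which had at most 27.3%.

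Lower levels were also measured in Dnmbp, which activates Cdc42, with 11.7, 22.4 and 21.1% in CAST/EiJ and at least 87.1% elsewhere (chr19:43852001-43853000). The CpGs of this tile, too, were nearly fully methylated elsewhere. The tile in Cacna1c, the pore of an L-type calcium channel, had 1.54, 9.85 and 10.3% in CAST/EiJ and 58.5 to 90% in the others (chr6:118737001-118738000). The tile in Itpr1, the receptor through which inositol trisphosphate releases calcium from the endoplasmic reticulum, had 11.9, 25 and 33.3% against 74.2 to 100%. Tile means cannot overlap between CAST/EiJ and the other samples under the rule that named these tiles. By position, all 5 in Cacna1c were free of overlap but only 3 of 6 in Itpr1, where 1 position averaged 80.3% in CAST/EiJ and 84.0% in the others.

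In Rhoq, a small GTPase of insulin-regulated glucose transport, the CAST/EiJ samples had 40.5, 36.4 and 27.7% and the others 75.1 to 90.2% (chr17:86966001-86967000). The tile in Tnfrsf1b, a receptor for tumour necrosis factor, had 2.84, 6.00 and 4.40% in CAST/EiJ and 39.4 to 66.5% in the others (chr4:145214001-145215000). The tiles in Rnf157, Pear1 and Stox2 had gaps of -43.1, -35.5 and -33.9 points. Sh3bp2, an adaptor protein of immune and bone cells, is described with the gene starts.

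**Figure D2:**
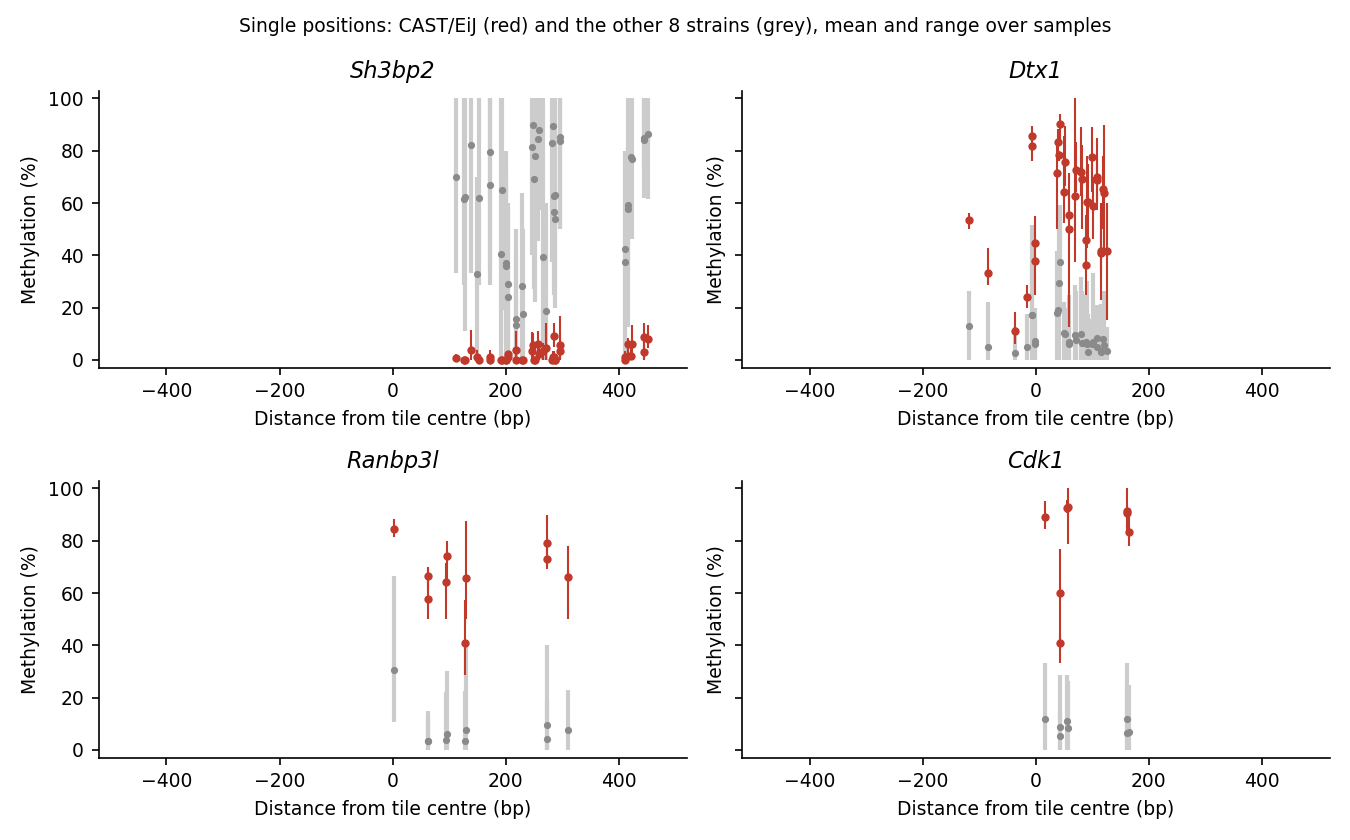
Methylation in percent at single positions (vertical axes) against the distance from the tile centre in base pairs (horizontal axes) in the tiles of Sh3bp2, Dtx1, Ranbp3l and Cdk1. Points are means over samples and lines run from the lowest to the highest sample, red for CAST/EiJ and grey for the other 8 strains; the CAST/EiJ mean lies below the mean of the other strains at all 43 positions in Sh3bp2 and above it at all 33 in Dtx1.

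A looser rule asked only for an adjusted p under 0.05 and a CAST/EiJ mean at least 25 points from the mean of the other 8 strains, with overlap allowed. It called 705 tiles (1.55%), 427 higher (0.936%) and 278 lower (0.61%) in CAST/EiJ. Of the 705, 418 had no overlap between the CAST/EiJ samples and the others; over all tested tiles 3.07% passed the adjusted p without overlap. CAST/EiJ had the highest of the 9 strain means in 360 tiles and the lowest in 242. PWK/PhJ was the strain nearest to CAST/EiJ in 331 of the 705 tiles (47.0%), and WSB/EiJ in 112 (15.9%). The median distance to PWK/PhJ was 24.8 points, and to the other 7 strains it was 33.2 to 36.3 points. Among the 72 tiles set apart, where no strain can be near, PWK/PhJ was still the nearest most often, in 25 (34.7%). The nearest strain was not counted over all tested tiles, so these shares have no background to be set against. By the same looser rule PWK/PhJ itself differed from the other strains at 718 tiles (1.57%).

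Of these 705 tiles 696 lay on the autosomes, in shares of 0.968% of tested tiles on chromosome 2 to 2.02% on chromosome 16. Chromosome 16 had 18 higher and 6 lower tiles. On chromosome 19 the order turned, with 12 higher and 15 lower, and chromosome 13 had 9 and 10. The X chromosome had a lower share than any autosome, 0.504%, with 3 higher and 5 lower among 1587 tiles. The remaining tile was 1 of 4 tested on the Y chromosome, although all samples were labelled female, and averaged 17.1% in CAST/EiJ against 14.6 to 98.0% in the others. No difference between chromosomes was tested.

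**Figure D3:**
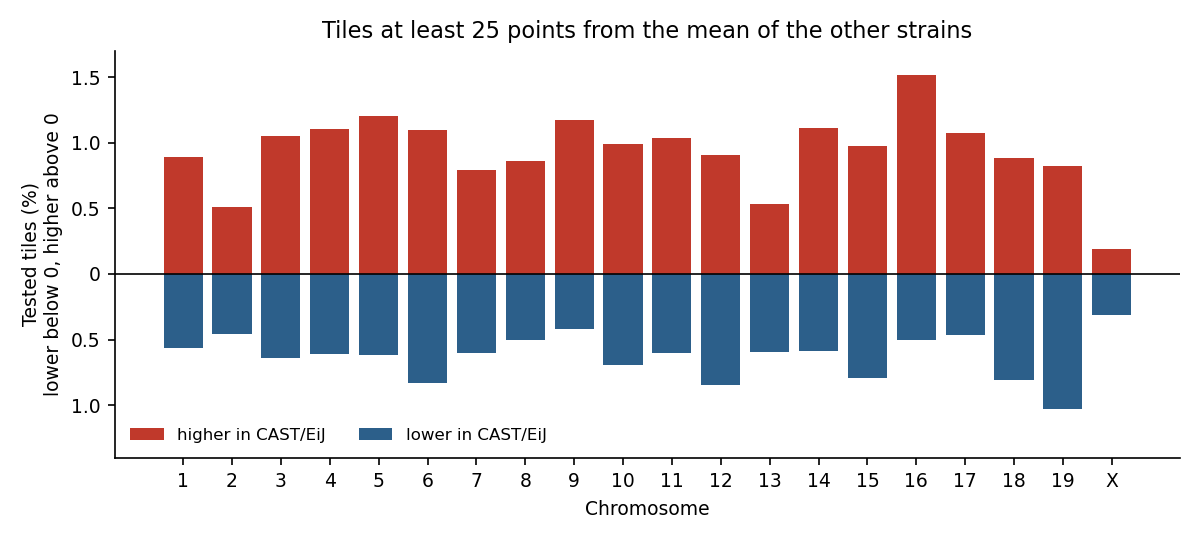
Share of tested 1 kb tiles on each chromosome (vertical axis, percent) whose CAST/EiJ mean was at least 25 points above (red, upward bars) or below (blue, downward bars) the mean of the other 8 strains with an adjusted p under 0.05. The bars together reach 2.02% on chromosome 16 and 0.504% on the X chromosome.

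Tiles at intermediate levels in the other strains held most of the differences. Of the 7707 tiles at 25 to 75%, 5.76% differed by 25 points, against 0.522% of those at 0 to 10% and 0.231% of those at 90 to 100%; near the ends of the scale only 1 direction is open. Of tiles in protein-coding genes 1.36% differed, and of tiles outside them 1.92%. Within 1 kb of a gene start, or of a gene end where no start was listed, the share was 1.06% (63 of 5931). Tiles with 5 to 9 positions differed in 1.79% of cases and those with 20 or more in 0.877%, so the number of positions read moved with the share; its part in the call was not tested.

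In windows at gene starts or gene ends, CAST/EiJ was set apart in 2 of 5341 tested (0.0374%), of which Ranbp3l was higher and Sh3bp2 lower (0.0187% each), both at a listed start. Without CAST/EiJ replicate 5 the count was 4. A window held the positions within 1 kb either side of a RefSeq start, or of either end of the gene span where no start was listed. In the window of Sh3bp2 the CAST/EiJ samples had 2.99, 1.13 and 2.62%, and the others 37.1 to 74.0% with a median of 60.8%. The difference was -57.2 points (limma, Benjamini-Hochberg adjusted p = 1.83e-16), over 43 positions that all lay in the tile chr5:34549001-34550000. No position averaged above 9.21% in CAST/EiJ, whereas their means over the other strains ran from 13.4 to 89.9%. At 30 of the 43 positions all CAST/EiJ samples lay below all others, and at the remaining ones single values overlapped. All 24 other samples were partly methylated there, the lowest of them from PWK/PhJ.

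The Ranbp3l window, at a gene related to the nuclear transport cofactor Ranbp3, held 10 positions. The CAST/EiJ samples had 69.5, 68.3 and 63.7%, and the others 1.73 to 20.4% with a median of 6.34% (difference 59.1 points; limma, Benjamini-Hochberg adjusted p = 1.48e-10). All 10 positions were higher in every CAST/EiJ sample than in any other sample. The highest of the others was a PWK/PhJ sample.

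With a gap of at least 10 points, 19 windows were called (0.356%), 13 higher (0.243%) and 6 lower (0.112%). Tnfsf14, the cytokine LIGHT, just missed the limit of 25 points: the CAST/EiJ samples had 82.9, 86.3 and 81.3% and the others 25.3 to 56.7%. Lrrc10, a gene of heart muscle, had 76.7, 78.8 and 78.0% against 29.1 to 60.4%. The lower windows belonged to Sh3bp2, Nlrp6, Gm29975, Igf2bp1, Pakap and Trim72. Nlrp6, an innate immune sensor of gut and liver, had 17.9, 20.2 and 23.8% in CAST/EiJ and 45.6 to 80.4% in the others. Igf2bp1 is an RNA-binding protein of fetal tissues. Its window, at the lower end of the gene span, which may or may not be the start, had 22.7, 20.6 and 26.6% against 39.2 to 57.8%.

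In 5 of the 13 higher windows the other strains were practically unmethylated and CAST/EiJ was at a low level. They belonged to Arpc1a, a subunit of the Arp2/3 actin complex, Washc3, a subunit of the WASH complex, M6pr, a mannose 6-phosphate receptor, Tmbim4, a Golgi membrane protein, and Ppp1r11, an inhibitor of protein phosphatase 1. Their CAST/EiJ means ran from 19.8% ± 2.04 (SD, n = 3) in M6pr to 23.3% ± 6.26 (SD, n = 3) in Ppp1r11, and no other sample passed 5.32%. The M6pr and Tmbim4 windows lay at the lower end of the gene span, which may or may not be the start. These 5 windows were grouped after their values were seen. Tmem200b, with 287 positions the most densely read of the 19, had 19.9, 19.1 and 19.8% in CAST/EiJ and 2.31 to 7.38% elsewhere. Windows with a mean under 2.5% over all samples were not tested, which removes such cases where the CAST/EiJ level is lower still. With no filter on the mean, 21 of 16346 windows (0.128%) passed with a gap of at least 10 points, 15 higher and 6 lower.

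**Figure D4:**
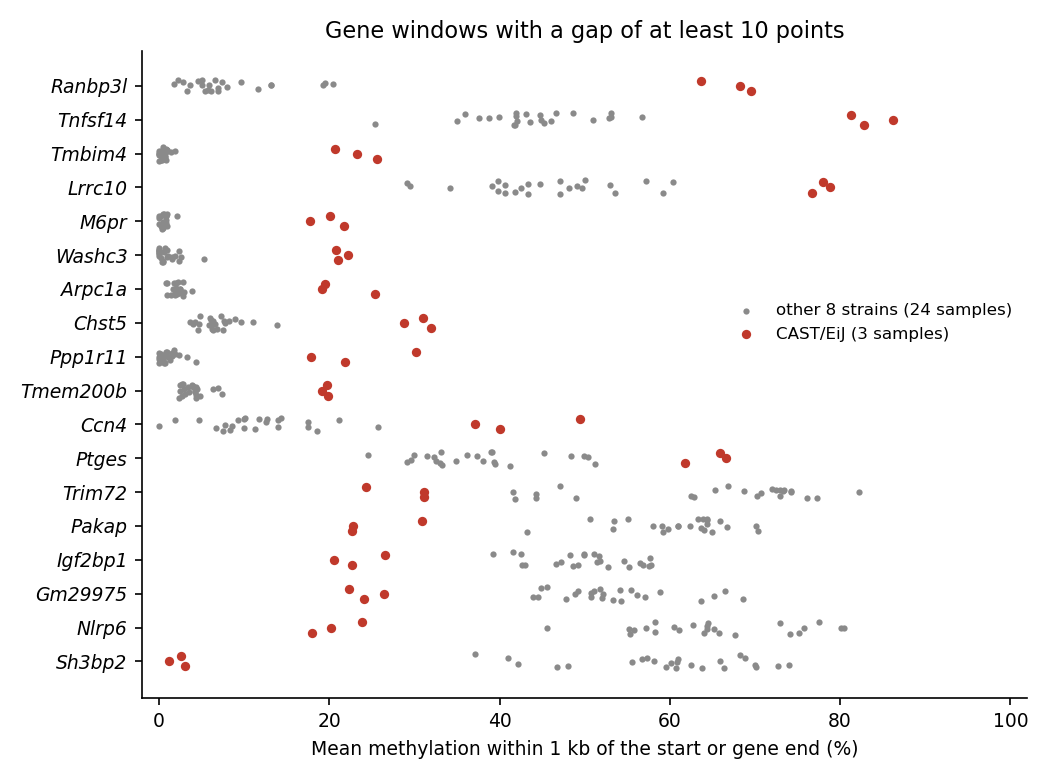
Mean methylation in percent (horizontal axis) of 18 of the gene windows with a gap of at least 10 points between CAST/EiJ and the other strains. Each point is a sample, red for CAST/EiJ and grey for the 24 others; CAST/EiJ lies above the others in 12 of the windows drawn and below them in 6, and Ranbp3l and Sh3bp2 are the widest apart.

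In all, 1082 of the 5341 windows (20.3%) passed the adjusted p alone, 611 higher (11.4%) and 471 lower (8.82%), many by small amounts. The 8 lists of liver genes together had 54 tested windows, of which 2 were higher and 6 lower (14.8% called, against 20.3% of all windows). Of 6 tested windows of hepatocyte identity factors, 1 was lower and none higher. Of 6 windows of secreted liver proteins, 1 was higher (Apoc2) and 1 lower (Apoa4). Of 5 windows of nuclear receptors 1 was lower (Thra), of 8 of lipid and bile acid metabolism 1 was lower (Gpam), and of 11 of glucose and insulin signalling 2 were lower, both at Sgk1. None of 9 windows of drug metabolism genes and not the 1 tested window of the clock genes passed, and of 8 windows of the Wnt pathway 1 was higher (Tcf7). The median difference over the list windows tested was between -2.07 points for the nuclear receptors and 1.25 for the secreted proteins, against 0.126 over all windows tested.

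Among the hepatocyte identity factors, the window called at an adjusted p under 0.05 and the tile differing by 25 points (1 of 49 tiles, 2.04%, against 1.55% of all tiles) were both in Nr5a2, a nuclear receptor that promotes bile acid synthesis. At an adjusted p alone, 6 tiles of these factors were higher and 5 lower. At its start on chromosome 1, over 51 positions, the CAST/EiJ samples had 8.30, 6.81 and 7.51% and the others 8.55 to 46.7% with a median of 19.96% (limma, Benjamini-Hochberg adjusted p = 7.90e-09). The lowest of the others, from PWK/PhJ, lay only 0.252 points above CAST/EiJ. In a tile inside the gene, chr1:136912001-136913000, the CAST/EiJ samples had 78.3, 84.3 and 81.4% and the others 5.21 to 45.9% with a median of 23.9% (adjusted p = 1.14e-09). The start was thus less methylated and the inner tile more methylated than in the other samples.

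Dnmt3a, which places new DNA methylation, was the 1 gene with a call among 6 tested windows of methylation enzymes and readers, where 20.3% of all windows were called. The CAST/EiJ samples had 26.1, 19.9 and 20.5% and the others 1.36 to 19.4% with a median of 5.53% (limma, Benjamini-Hochberg adjusted p = 5.39e-05). The groups were separated by 0.512 points only. RNA was not analysed here.

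Imprinted genes are expressed from 1 parental copy, and their control regions are methylated on 1 copy only. They had 44 tested windows, of which 4 were higher (9.09%, against 11.4% of all windows) and 1 lower (2.27%, against 8.82%). Over the 53 imprinted windows measured the median was 29.9% in CAST/EiJ and 30.3% elsewhere, and over the 44 tested the median difference was 0.238 points. The upper end of Cdkn1c, a growth inhibitor, was lower, with 18.7, 12.0 and 14.1% against 15.5 to 35.6%. Airn, the antisense transcript of the Igf2r region, had 51.3, 45.9 and 49.1% against 27.5 to 50.8%, so that the groups overlapped. The other higher windows were at Klf14, Commd1 and an upstream start of Mest, where CAST/EiJ lay 3.84 points above the highest PWK/PhJ sample. In CAST/EiJ the Commd1 window averaged 12.7% ± 0.408 (SD, n = 3), compared with a median of 0.970% in the others, the highest of which, from PWK/PhJ, was at 16.6%.

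Of 760 tiles inside genes of the 11 lists, 13 differed by 25 points (1.71%, against 1.55% of all tiles), in 11 genes. The share was 6.38% of 47 tiles for drug metabolism, which had 2 higher and 1 lower. In Cyp4f13, a cytochrome P450, the CAST/EiJ samples had 37.3, 40.2 and 36.2% and the others 0 to 15.97% with a median of 1.33% (chr17:32924001-32925000; limma, Benjamini-Hochberg adjusted p = 5.86e-11). A pair of tiles in Ppard, a nuclear receptor for fatty acids, was higher by 38.2 and 37.5 points, the first with overlap and the second with a gap of 7.80 points. Slc10a1, the main bile acid importer of hepatocytes, was lower, with 44.3, 50.6 and 44.7% against 44.5 to 100%, and here the lowest of the others, from PWK/PhJ, fell within the CAST/EiJ range. Cyp2d22 was lower by 33.0 points and Cyp46a1 higher by 27.3 points, both with overlap. Acacb was higher and Sgk1 lower with overlap, the lowest Sgk1 value being 1.82% in an NZO/HlLtJ sample, and Lef1 was higher by a gap of 4.24 points. In Slc38a4 the highest CAST/EiJ sample had 21.4% and the lowest of the others 26.9%.

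Averaged over the X chromosome CAST/EiJ was the least methylated strain, but not at the X positions that were highly methylated elsewhere. Over 39017 X positions the CAST/EiJ samples averaged 43.4, 42.8 and 42.4%, and the others 43.5 to 47.0% with a median of 45.3%. The difference was -2.47 points (exact permutation test, two-sided, p = 0.000342, the smallest possible over 2925 assignments), and CAST/EiJ had the lowest of the 9 strain means. At the 11021 X positions over 80% in the others, CAST/EiJ averaged 91.5% ± 0.272 (SD, n = 3) against 91.7%, at rank 7 of 9 strains, and the difference did not pass (exact permutation test, two-sided, p = 0.584). At the 4043 X positions under 10% in the others it averaged 4.72% against 5.69%, at rank 9 of 9 (exact permutation test, two-sided, p = 0.00923). Both sets were chosen by the level in the other strains. The permutations did not repeat that choice, so the p-values of both sets are descriptive. On the autosomes CAST/EiJ averaged 27.9% ± 0.0207 (SD, n = 3) and the others 27.4%, which was 0.5002 points higher (exact permutation test, two-sided, p = 0.0407), at rank 3 of 9 strains. The autosomal call was lost when CAST/EiJ replicate 1, 4 or 5 was left out (p = 0.108, 0.0954 and 0.102 by the same exact test) or when C57BL/6J was left out (p = 0.0766), and held without PWK/PhJ (0.607 points, p = 0.00889). Samples of 1 strain share a genotype and are not independent, so that the rank is the more cautious description; the low X level of CAST/EiJ was known when these tests were chosen.

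In the 722 X tiles at 20 to 80% in the other strains, the CAST/EiJ samples averaged 34.8, 34.5 and 33.4%, and the others 34.6 to 40.1%. The difference was -2.96 points (exact permutation test, two-sided, p = 0.00103), again the lowest of 9 strains. In 9855 autosomal tiles at the same levels CAST/EiJ averaged 59.6% ± 0.107 (SD, n = 3) against 56.8% elsewhere, 2.86 points higher (exact permutation test, two-sided, p = 0.0202) and second to PWK/PhJ. The X value less the autosomal value was -24.97, -25.01 and -26.2 points in the CAST/EiJ samples and -23.7 to -16.9 in the others, without overlap (exact permutation test, two-sided, p = 0.000342). Both sets of tiles were chosen by their level in the other strains alone. The permutations did not repeat that choice, so the p-values over these X and autosomal tiles are descriptive.

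**Figure D5:**
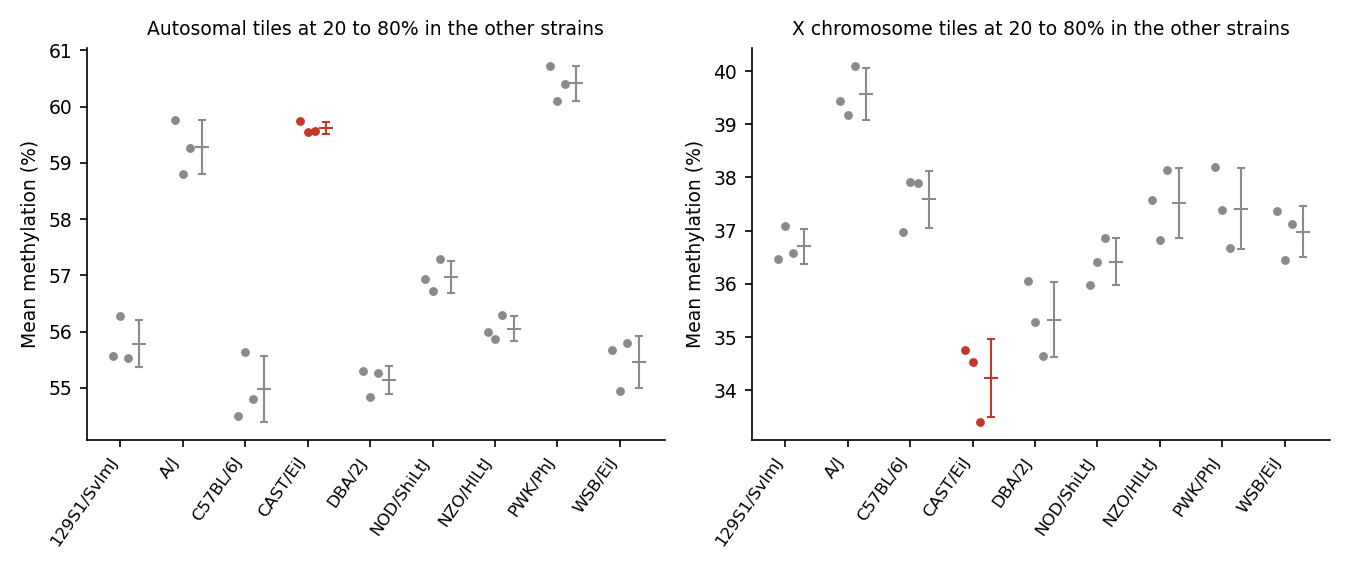
Mean methylation in percent (vertical axes, not starting at 0) over 9855 autosomal tiles (left) and 722 X chromosome tiles (right) that lie at 20 to 80% in the other strains, by strain. Points are samples and the bars beside them give the mean ± SD of 3 samples; CAST/EiJ (red) is the lowest strain on the X at 34.2% and the second highest on the autosomes at 59.6%.

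Single X tiles showed the same order. Of the 1587 X tiles tested, 192 (12.1%) were lower and 33 (2.08%) higher in CAST/EiJ at an adjusted p under 0.05. On the autosomes 1984 of 44013 tiles (4.51%) were lower and 3933 (8.94%) higher, and over all tiles 13.5% passed, 8.7% higher and 4.77% lower. On the X, 57 of these tiles (3.59%) lay below all other samples and 7 (0.441%) above, against 1.2% and 1.88% of all tested tiles. The lower X tiles included CpG clusters within several genes. A tile of Bcor, a transcriptional corepressor, had 5.50% ± 1.09 (SD, n = 3) in CAST/EiJ and 10.7 to 19.4% in the others (chrX:12140001-12141000). A tile of Slc35a2, which carries UDP-galactose into the Golgi, had 8.72% ± 1.32 (SD, n = 3) against 13.2 to 28.6%. In Otud5, a deubiquitinase, 110 positions averaged 12.8% ± 0.501 (SD, n = 3) against 15.1 to 26.97%. Hdac6, Usp9x, Med14, Pim2 and Bcorl1 also had tiles below every other sample, with small gaps of -1.01 to -3.13 points. These genes were picked from the list after their values were seen. After the Mid1 tile described below, the widest gaps were in 2 tiles of Gm5939 (-23.5 and -16.0 points). Next came a tile 132924 bp from Btbd35f27 (-14.0) and 1 in LOC115489104 (-8.03). These tiles averaged 81.4 to 93.4% in the other strains.

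The 1 X tile set apart was in Mid1, a ubiquitin ligase bound to microtubules whose gene spans the edge of the pseudoautosomal region in laboratory mice. The CAST/EiJ samples had 48.9, 31.7 and 27.9% and the others 78.3 to 99.1% (chrX:169926001-169927000; limma, Benjamini-Hochberg adjusted p = 1.85e-07). The neighbouring tile had 68.2, 53.2 and 47.2% against 75.1 to 98.3%, and the start of Mid1 had 4.80, 4.51 and 7.68% against 8.81 to 24.2%. Among 14 tested windows of X inactivation and escape genes, Mid1, Usp9x and Utp14a were lower and none was higher, with a median difference of -3.03 points. These 3 are 21.4% of the list, where 8.82% of all windows tested and 31.0% of the 496 windows on the X were lower.

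Kdm5c, a histone demethylase gene that escapes X inactivation, went the other way. A tile at its start, chrX:152233001-152234000, had a mean of 21.4% ± 0.909 (SD, n = 3) in CAST/EiJ and at most 2.54% in any other sample (limma, Benjamini-Hochberg adjusted p = 5.09e-13). Its window of 54 positions had 12.3, 12.6 and 11.4% in CAST/EiJ and at most 2.16% elsewhere, but its mean over all samples was too low for the window test. A tile 1013 bp outside the span of Ddx3x, another gene that escapes X inactivation, held 5 positions. It had 66.1% ± 0.320 (SD, n = 3) against 14.6 to 52.0%. The starts of Ddx3x, Kdm6a and Eif2s3x had 0.488, 0.564 and 0.365% in CAST/EiJ and were not set against the other strains here.

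Single positions were set apart in 1194 of 704330 cases (0.17%), 620 higher (0.088%) and 574 lower (0.0815%). The position on the opposite strand of the same CpG was also read in 454 higher and 273 lower cases. It differed by at least 25 points in the same direction in 90.3% and 90.5% of them. Over all tested positions, 1.09% were higher and 0.735% lower by at least 25 points with an adjusted p under 0.05. How often strands went together at other positions was not counted. With at least 3 other positions within 100 bp, these neighbours moved by a median of 34.0 points with the higher and 39.3 points with the lower positions. They moved by under 10 points in 8.46% of the higher but in 27.6% of the lower cases, and 198 of the 574 lower positions were under 5% in CAST/EiJ. A cytosine lost to a sequence variant can be read as unmethylated; how many lower positions hold a variant was not tested.

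The reference sequence was set beside the listed positions in the RefSeq start sequences. Of 241842 positions listed in all 27 samples, 241837 fell on a CpG of GRCm38.p6. Of those listed in all 3 CAST/EiJ samples 1.53% did not, against 1.51% for PWK/PhJ, 0.624% for WSB/EiJ and 0.0466% for C57BL/6J. Whether each strain was aligned to its own genome or all to C57BL/6J is not given in the sources used here, and the C57BL/6J files name the mitochondrial chromosome differently from the other files. What a position off the reference CpGs stands for therefore cannot be read from these shares. The tests above used positions listed in all 27 samples, so they do not cover CpGs present in CAST/EiJ alone.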

How the data were processed

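Each deposited file gives a percent methylation per position, per the file headers, and no coverage. The submitters' processing notes name Trim Galore 0.6.3, Bowtie2, Bismark 0.22 and the builds GRCm38 and mm10; a coverage filter was not given in the sources used here. Libraries were made with MspI and bisulfite, per the labels' protocols. Positions listed in all 27 samples were averaged, strands apart, over 1 kb tiles and over gene windows of 1 kb either side, with at least 5 positions and a mean of 2.5 to 97.5%. Gene spans and starts came from RefSeq for GRCm38.p6, without exons; 99.998% of shared positions in start sequences fell on a CpG. limma 3.58.1 (R 4.3.3) fitted log2((percent + 5)/(100 - percent + 5)) with 9 strain means; the contrast was CAST/EiJ minus the mean of the other 8, with Benjamini-Hochberg adjustment over all features. Percent differences weight the 8 strains equally. Single values per sample used exact permutation tests. The tile test was also run on simulated data, the outcome of which is not used as support here. Named tiles are the 12 per direction with the largest gap in protein-coding genes, the 3 largest per direction anywhere, and set apart list genes; windows with a gap of at least 10 points and others said to be so were added after their values were seen. The members, the 11 gene lists and the 5 marker lists were chosen with earlier results of these data known. The labels call the replicates biological but do not say that each is a separate animal, so p-values measure the spread between samples. Replicate numbers did not pair samples (see the closing section). Of the gene windows with a gap of at least 10 points, 1 is not reported here.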

Additional observations from a re-analysis of the deposited data

Results flagged for a closer look

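Positions listed in CAST/EiJ only lay outside the main measurement. In all, 103624 positions appeared in every CAST/EiJ file but in no file of another strain. The 103468 of them on the autosomes and the X chromosome averaged 74.1, 74.2 and 74.2% in the 3 samples, against 28.3, 28.2 and 28.2% at shared positions. Of the 2688 that fell in RefSeq start sequences, 51.6% were not on a CpG of the GRCm38.p6 reference. Conversely, 72191 positions appeared in all 24 other files but in no CAST/EiJ file.

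Y chromosome positions were listed in the CAST/EiJ samples although all were labelled female. The samples had 1156, 1173 and 1442 of them, and the other samples 790 to 1686, with CAST/EiJ at rank 3 of 9 strains. The mean difference of 104 positions did not pass (exact permutation test, two-sided, p = 0.488), and its source was not tested.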

How the results depend on the processing

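Of 1220 values of named tiles and windows recomputed under alternatives, 1218 kept an adjusted p under 0.05. Ptges and Ccn4 lost the call when the largest of 8 pairwise p-values was used. No direction changed, but none could. The named features were chosen for a gap between all CAST/EiJ samples and all others, which leaving samples out cannot reverse. The other alternatives changed only the p-values. Named features were not followed where tiles were moved, windows resized, strands averaged or positions chosen differently. The number of tiles set apart (72, 40 higher and 32 lower) depended on the size asked for, as did the excess of higher over lower ones. A gap of 10 points gave 271 tiles (151 higher, 120 lower), 19 windows and 2801 positions, and a gap of 40 points gave 28 tiles (14 higher, 14 lower), 1 window and 542 positions. With 3 or more positions per tile there were 123 set apart (62 higher, 61 lower) and 1318 differing, and with 10 or more there were 22 (17 higher, 5 lower) and 206. Averaging the strands of a CpG left 48 tiles set apart (30 higher, 18 lower) and 405 differing. A difference of 10 points gave 3416 differing tiles, and the largest pairwise p gave 241. Leaving out each of the 27 samples in turn gave 72 to 86 tiles set apart (40 to 48 higher, 32 to 39 lower) and 699 to 736 differing tiles. A gap can only stay or widen when a sample is left out, so counts of features set apart could fall only through the adjusted p. For the other results only the CAST/EiJ replicates were left out in turn, which gave 1525 to 1592 positions and 2 to 4 windows, the 4 without CAST/EiJ replicate 5. Over these 3 omissions the X difference ran from -2.73 to -2.23 points over positions and from -3.23 to -2.54 over intermediate tiles. The autosomal difference stayed at 0.490 to 0.510 points without a CAST/EiJ replicate and was 0.441 without C57BL/6J, but no longer passed; without PWK/PhJ it was 0.607 and passed. The replicate number as a block, which changes the p-values but not the gaps, gave 72 tiles set apart, 684 differing tiles, 2 windows and 1184 positions. Same-numbered samples did not deviate together (mean r = 0.00387, range -0.0416 to 0.0376), so the numbers do not pair samples. Depth is unknown, so a tile of few positions may rest on few reads.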
